A study of Mus musculus with 6 samples.

Results

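The cytochrome P450 genes described here are the 94 genes, of 55291 in the deposited table, whose symbol is Cyp followed by a family number, a subfamily letter and a member number. Left out were 33 pseudogenes, whose symbols carry -ps, and 7 genes whose symbols are built otherwise, namely Cyp51, Cyp4a12a, Cyp4a12b, Cyp4a30b, Cyp3a41a, Cyp3a41b and Cyp4x1os. The 94 genes fall into 16 families and 39 subfamilies, and membership rests on the symbol alone. They were measured by bulk RNA sequencing of polyadenylated RNA in 6 mouse liver tumours, 3 per group. The MKO_PD1 tumours grew in Trem2-MKO mice, which the series title describes as a myeloid-specific Trem2 knockout, and the Cre_PD1 tumours in LysM-Cre mice. LysM-Cre drives recombination in macrophages, monocytes and neutrophils, and not in hepatocytes. Both groups carried RIL-175/PD-1R tumours, RIL-175 being a mouse liver cancer line, and both were taken after treatment with anti-PD-1, which blocks the checkpoint receptor PD-1. The meaning of PD-1R, the dose, the age and any batch are not in the labels, and no tumour without anti-PD-1 was analysed here.

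Cytochrome P450 enzymes are haem proteins that insert 1 oxygen atom into a substrate, most of them in the endoplasmic reticulum with electrons from P450 oxidoreductase and some in mitochondria with electrons from ferredoxin. In liver, hepatocytes hold most of them. Families Cyp1 to Cyp3 handle mainly drugs and other foreign compounds, Cyp4 mainly fatty acids, and Cyp7, Cyp8, Cyp27 and Cyp39 cholesterol and bile acids. Many are expressed in hepatocytes around the central vein, and their transcription depends on hepatocyte factors such as HNF4A, FOXA and C/EBP and on ligand-bound receptors such as CAR and PXR.

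Levels are in TPM, transcripts per 1000000 transcripts, since every library was brought to that sum. Values of a group are given for replicates 1, 2 and 3 in that order, and ± is the SD of 3 libraries. Log2 differences are MKO_PD1 minus Cre_PD1 on the log2(TPM + 1) scale, which understates the change of low genes. The libraries held between 29234335 and 32849641 recovered reads in MKO_PD1 and between 26747236 and 34264909 in Cre_PD1, so 1 read on a gene of 1 kb was worth 0.0763 to 0.114 TPM. The targeted gene Trem2 was at 7.68, 18.0 and 6.81 TPM in MKO_PD1, against 10.5, 16.5 and 14.9 TPM in Cre_PD1, and the groups overlapped. Trem2 in a whole tumour comes from any cell that expresses it, and the reads per exon were not analysed here.

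The P450 genes together took 1.42, 0.554 and 1.18% of all TPM in MKO_PD1 replicates 1, 2 and 3, against 0.128, 0.432 and 0.430% in Cre_PD1 replicates 1, 2 and 3. All 3 MKO_PD1 tumours were above all 3 Cre_PD1 tumours, but MKO_PD1 replicate 2 lay much nearer to the Cre_PD1 tumours than to the other MKO_PD1 tumours, and Cre_PD1 replicate 1 was lowest. The group values were 1.05 ± 0.446% in MKO_PD1 and 0.330 ± 0.175% in Cre_PD1. The RNA of other hepatocyte genes differed between the same tumours. A list of 24 hepatocyte genes without any P450 gene, led by albumin, took 20.2, 4.98 and 14.4% of all TPM in MKO_PD1, against 2.25, 3.999 and 4.02% in Cre_PD1. All 24 were detected in every library and all 24 had a log2 difference above 0 (median 1.77), with 21 separate between the groups. Of all tested genes, 27.1% had a difference above 0 and 10.1% were separate and higher. In bulk tissue, fewer cells of a type and less RNA per cell cannot be told apart. Nor can RNA of these genes from host hepatocytes be told apart from any made by tumour cells. The labelled tissue is a liver tumour, and Krt19, a keratin of bile duct and tumour epithelium, was at 213, 1224 and 868 TPM in MKO_PD1, against 4477, 2882 and 2247 TPM in Cre_PD1, with every MKO_PD1 tumour below every Cre_PD1 tumour.

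Of the 94 genes, 83 had at least 1 read in some library and 11 were at 0 in all 6. The 11 were Cyp19a1, Cyp2b23, Cyp2c66, Cyp2d34, Cyp2j7, Cyp2j11, Cyp2j12, Cyp2j13, Cyp2w1, Cyp3a16 and Cyp4f40. Another 6 had between 1 and 3 reads over all libraries. Mean levels over the 6 libraries reached 100 TPM for 19 genes and 5 TPM for 47, and 35 genes lay under 1 TPM. The filter of at least 1 TPM in at least 3 libraries kept 57 genes for testing. A gene low in Cre_PD1 could pass this filter through MKO_PD1 alone, so the counts below describe the 57 tested genes and not all 94.

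No P450 gene passed the limma test at an adjusted p of 0.05, where 0.0121% of all tested genes did (2 of 16506), and voom on the recovered reads called none either. At an unadjusted limma p under 0.05, 30 of the 57 were higher in MKO_PD1, where 8.47% of all tested genes were, and 2 were lower, where 19.5% of all tested genes were. The limma adjusted p of these 32 genes lay between 0.168 and 0.176. The groups were separate, meaning that the lowest value of a group lay above the highest of the other, for 26 P450 genes that were higher in MKO_PD1 (background 10.1%) and for 1 that was lower (background 28.9%), and they overlapped for 30. The median log2 difference was 1.42 over the P450 genes and -0.42 over all tested genes. With median-of-ratios scaling, which brought the median of all genes to 0.0044, the P450 median was 1.91. The fitted difference was above 0 for 49 of the 57 P450 genes, against 27.1% of all tested genes. The same shares of all tested genes serve as background for the counts of smaller P450 groups below. In 2 further limma fits the libraries were scaled to an equal mean of the hepatocyte list, called hepatocyte scaling below, or that mean was a covariate. Of the 50 named genes, 22 changed sign with hepatocyte scaling and 32 with the covariate, and those are given with each group of genes.

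**Figure D1:**
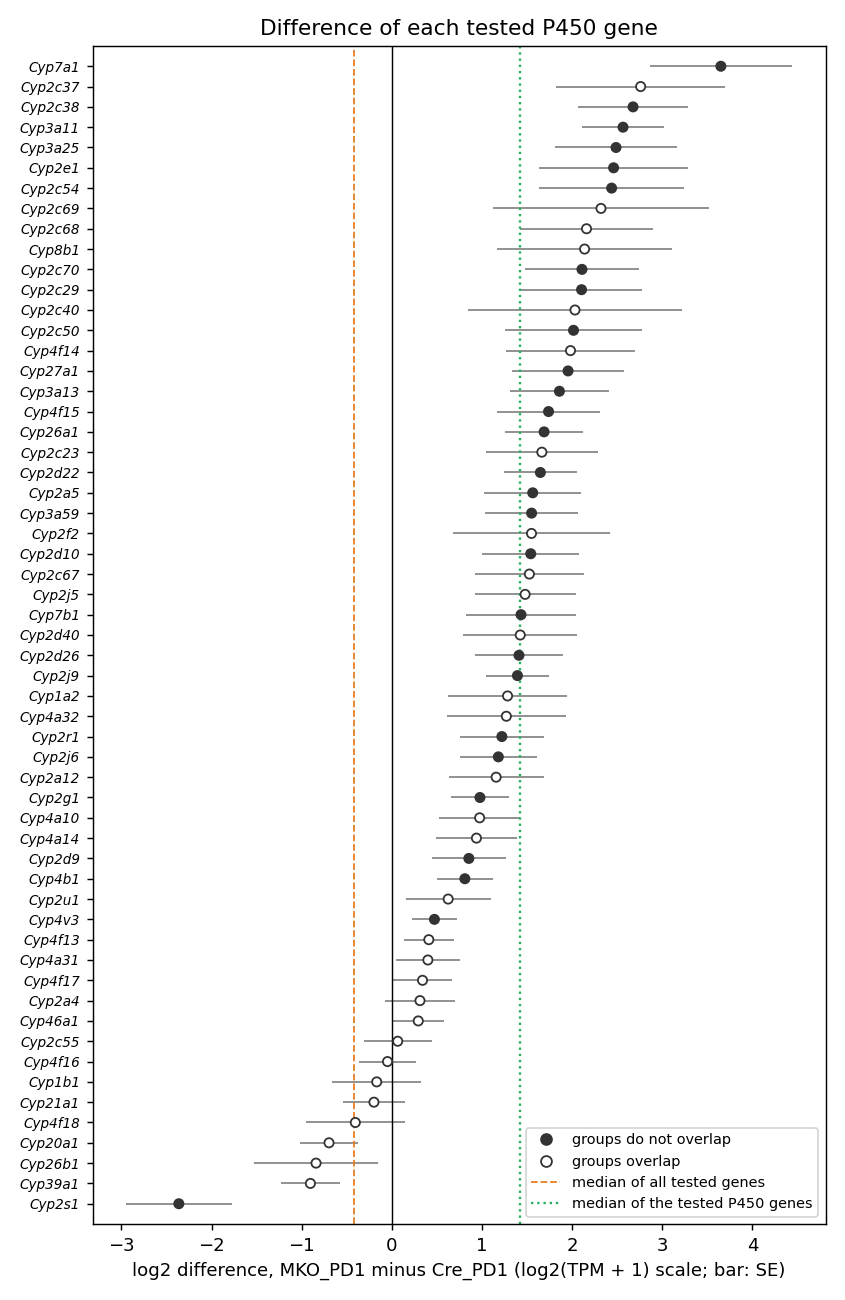
Log2 differences (MKO_PD1 minus Cre_PD1, log2(TPM + 1) scale) with standard errors for the 57 tested P450 genes, ordered by size. Cyp7a1 lies at 3.65 at one end and Cyp2s1 at -2.36 at the other.

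The libraries within a group were not alike. MKO_PD1 replicate 2 lay above the whole Cre_PD1 range for 34 of the 57 genes, within it for 20 and below it for 3, where 31.9%, 36.8% and 31.3% of all tested genes did so. It was the lowest MKO_PD1 library for 25 of the 26 genes that were separate and higher. Cre_PD1 replicate 1 was the lowest of all 6 libraries for 45 of the 57. Without MKO_PD1 replicate 2, 32 of 56 P450 genes were higher and 2 were lower at a limma adjusted p under 0.05, where 7.88% of all genes tested in that comparison were higher and 38.0% lower. The smallest adjusted p of a P450 gene was then 0.0290 in limma. Without MKO_PD1 replicate 3, and likewise without Cre_PD1 replicate 1, 15 P450 genes were higher at an unadjusted limma p under 0.05, in place of 30, and of all genes 3.97% and 3.7% were. Without MKO_PD1 replicates 1 and 3 the median log2 difference was 0.72, and 6 of 54 tested P450 genes were higher at an unadjusted limma p under 0.05, where 8.38% of all tested genes were. That fit assumes that the lone MKO_PD1 library varies like the Cre_PD1 libraries.

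**Figure D2:**
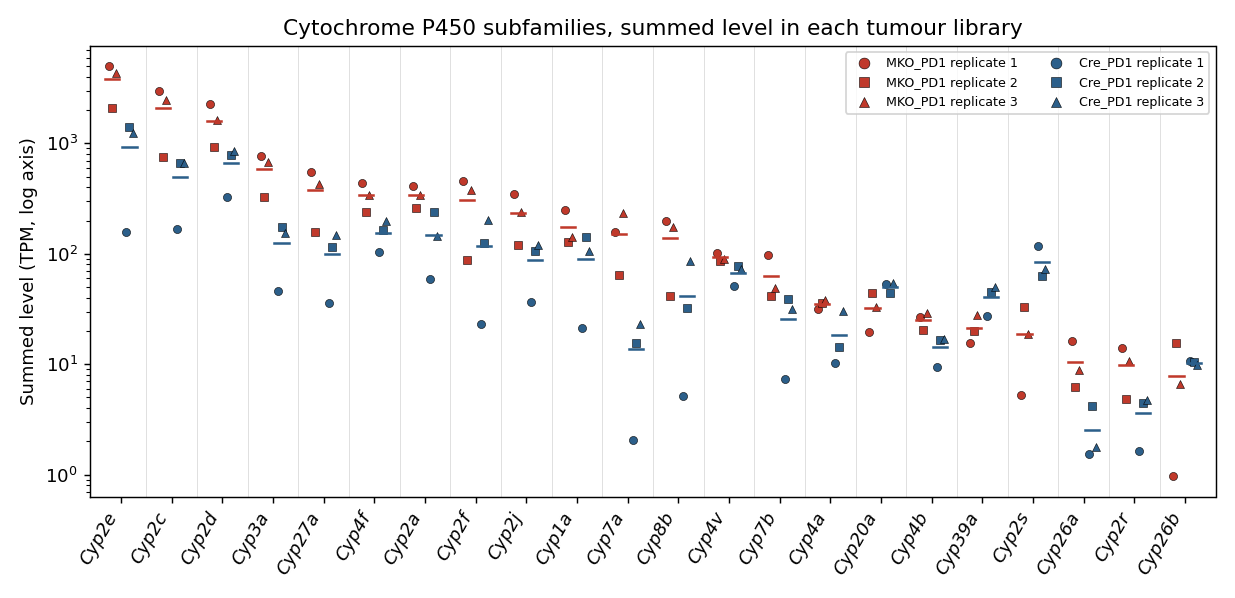
Summed TPM (log axis) of the 22 subfamilies with a mean of at least 5 TPM, per tumour, MKO_PD1 left of Cre_PD1 in each pair. The tumours span 0.969 to 4987 TPM, Cyp2e is highest and Cyp2s is the subfamily whose MKO_PD1 tumours all lie below the Cre_PD1 tumours.

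By subfamily, the summed TPM was separate and higher in MKO_PD1 for 18 of the 39 subfamilies, separate and lower for 1, and overlapping for 20. Of single tested genes, 10.1% lay wholly above the Cre_PD1 tumours and 28.9% wholly below. Those genes had passed the filter, whereas the subfamily sums were taken without it. The 18 include low sums such as Cyp2ab, with means of 0.568 TPM in MKO_PD1 and 0.0973 TPM in Cre_PD1. Cyp19a and Cyp2w, at 0 in every library, are counted as overlapping. Cyp4a is among the 18 without Cyp4a12a and Cyp4a12b, and overlapped with them. Cyp2e, Cyp2c and Cyp2d made up most of the P450 RNA. Their mean shares were 36.8, 18.6 and 15.5% of P450 TPM in MKO_PD1, against 24.6, 14.7 and 21.3% in Cre_PD1. Cyp7a had the highest ratio of group means among the subfamilies of at least 5 TPM, at 11.2, and Cyp2s the lowest, at 0.223. The ratio was 4.70 for Cyp3a, 4.16 for Cyp2c, 4.09 for Cyp2e, 2.44 for Cyp2d and 2.19 for Cyp4f.

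The bile acid genes lay in the same direction with 1 exception. Of the 7 tested genes of bile acid and cholesterol oxidation, 4 were higher and 1 lower at an unadjusted limma p under 0.05, and 4 were separate and higher. Cyp7a1 (ENSMUSG00000028240.2, chromosome 4, 6265612 to 6275633, minus strand) encodes the rate-limiting enzyme of the classical pathway from cholesterol to bile acids. It was at 159, 63.7 and 235 TPM in MKO_PD1, against 2.05, 15.7 and 23.2 TPM in Cre_PD1. The lowest MKO_PD1 tumour was above the highest Cre_PD1 tumour, with a log2 difference of 3.65, SE 0.79, a fitted fold of 12.5. Cyp8b1, whose enzyme sets how much cholic acid is made, was at 199, 41.2 and 176 TPM in MKO_PD1, against 5.09, 32.1 and 85.9 TPM in Cre_PD1. Its groups overlapped, since MKO_PD1 replicate 2 lay among the Cre_PD1 tumours (log2 difference 2.14, SE 0.97, limma adjusted p = 0.185).

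Cyp27a1, the mitochondrial enzyme that oxidises the sterol side chain, was at 547, 156 and 431 TPM in MKO_PD1, against 36.1, 115 and 147 TPM in Cre_PD1. Cyp7b1, the oxysterol hydroxylase of the alternative pathway, was at 98.4, 41.5 and 48.9 TPM in MKO_PD1, against 7.27, 39.1 and 31.4 TPM in Cre_PD1. Both were separate, with log2 differences of 1.95 and 1.43, and Cyp7b1 turned negative with hepatocyte scaling. With the covariate, Cyp7b1, Cyp27a1 and Cyp8b1 were negative. Cyp2c70, which in mice makes the muricholic acids, was at 843, 159 and 678 TPM in MKO_PD1, against 61.9, 139.9 and 128 TPM in Cre_PD1 and was separate as well (log2 difference 2.11, SE 0.63). Cyp39a1, which hydroxylates an oxysterol on its way to bile acids, went the other way, at 15.7, 19.9 and 28.0 TPM in MKO_PD1, against 27.5, 44.8 and 49.7 TPM in Cre_PD1. MKO_PD1 replicate 3 was just above the lowest Cre_PD1 tumour, so the groups overlapped (log2 difference -0.90, SE 0.33). Cyp46a1, a cholesterol hydroxylase known mainly from neurons, was at 1.53, 1.31 and 1.24 TPM in MKO_PD1, against 0.479, 1.14 and 1.25 TPM in Cre_PD1.

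Within a library, Cyp7a1 was also set against its pathway partners Cyp8b1 and Cyp27a1. The ratio of Cyp7a1 to Cyp8b1 TPM, chosen after the values were seen, was 0.796, 1.55 and 1.34 in MKO_PD1, against 0.402, 0.488 and 0.271 in Cre_PD1. The ratio of Cyp7a1 to Cyp27a1, likewise not planned beforehand, was 0.290, 0.408 and 0.544 in MKO_PD1, against 0.0568, 0.136 and 0.158 in Cre_PD1. Both ratios were higher in every MKO_PD1 tumour, replicate 2 included. Since Cyp7a1 had the largest log2 difference of the tested P450 genes, these ratios restate that difference and are not a separate result.

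**Figure D3:**
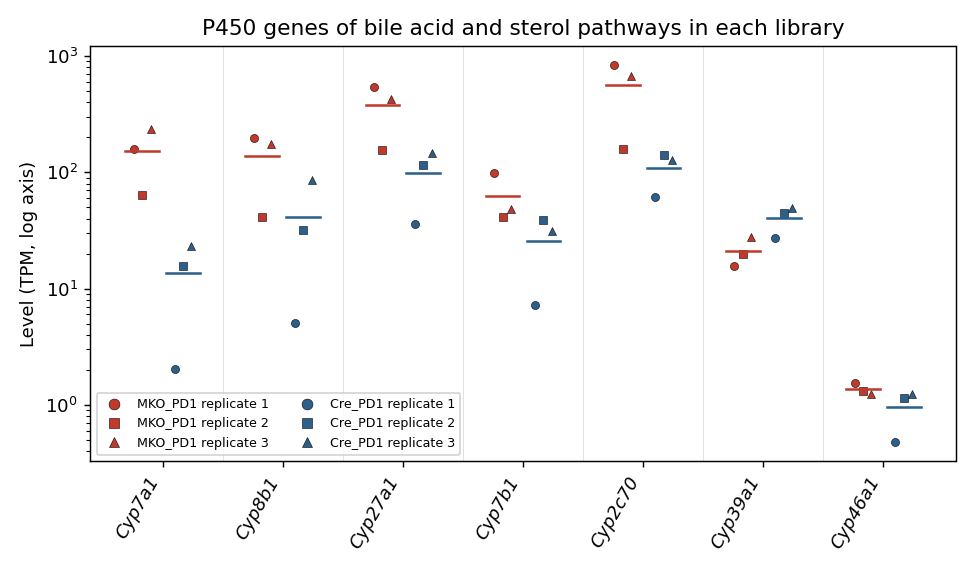
TPM (log axis) of the bile acid P450 genes in each tumour, MKO_PD1 left of Cre_PD1. Cyp7a1 is at 63.7 TPM or more in MKO_PD1 and at 23.2 TPM or less in Cre_PD1, while the groups overlap for Cyp8b1 and Cyp39a1.

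All 4 tested genes of Cyp3a, the subfamily that handles the widest range of drugs, were separate and higher in MKO_PD1, and their fitted differences stayed above 0 with hepatocyte scaling and with the covariate. Cyp3a11 (ENSMUSG00000056035.8, chromosome 5, 145854426 to 145879964, minus strand), the main mouse member induced through PXR, was at 244, 143 and 157 TPM in MKO_PD1, against 13.6, 44.9 and 39.0 TPM in Cre_PD1. It had the smallest unadjusted p of the P450 genes (0.000515 in limma, log2 difference 2.56, SE 0.46, limma adjusted p = 0.168), and MKO_PD1 replicate 2 stood far above the Cre_PD1 tumours. Cyp3a25 was at 301, 117 and 308 TPM in MKO_PD1, against 12.6, 72.0 and 62.0 TPM in Cre_PD1 and Cyp3a13 at 205, 64.3 and 192 TPM in MKO_PD1, against 18.8, 53.8 and 49.1 TPM in Cre_PD1. Their log2 differences were 2.49 and 1.86. Cyp3a59, which shares 13.2% of its 75-base windows with other genes, was at 12.5, 5.35 and 16.9 TPM in MKO_PD1, against 1.18, 4.95 and 3.70 TPM in Cre_PD1 (log2 difference 1.55, SE 0.51). As log2(TPM + 1) minus the hepatocyte list mean, Cyp3a59 averaged -7.17 in MKO_PD1 and -6.91 in Cre_PD1, and the groups overlapped.

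Cyp2c, whose enzymes oxidise drugs and arachidonic acid, had 12 tested genes, of which 9 were higher at an unadjusted limma p under 0.05 and 5 were separate (median log2 difference 2.11). Of the 15 genes of the subfamily, 14 lie on chromosome 19 of GRCm38 between 39007019 and 40187333. Cyp2c29, a gene of hepatocytes around the central vein, was at 577, 143 and 411 TPM in MKO_PD1, against 28.9, 122 and 117 TPM in Cre_PD1. Cyp2c50 was at 326, 119.9 and 287 TPM in MKO_PD1, against 14.5, 119.7 and 91.5 TPM in Cre_PD1 and Cyp2c54 at 228, 67.5 and 215 TPM in MKO_PD1, against 6.66, 60.6 and 44.2 TPM in Cre_PD1. These were separate, though for Cyp2c50 MKO_PD1 replicate 2 and Cre_PD1 replicate 2 were almost equal. Cyp2c38 (ENSMUSG00000032808.2, chromosome 19, 39389556 to 39463075, minus strand) was at 37.0, 7.78 and 37.6 TPM in MKO_PD1, against 1.34, 3.54 and 3.66 TPM in Cre_PD1, low in all 3 Cre_PD1 tumours, with a log2 difference of 2.67, SE 0.61. With the covariate Cyp2c29, Cyp2c50 and Cyp2c54 were negative.

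In the other abundant Cyp2c genes MKO_PD1 replicate 2 lay among or beside the Cre_PD1 tumours. Cyp2c68 was at 275, 48.4 and 232 TPM in MKO_PD1, against 13.1, 49.5 and 49.0 TPM in Cre_PD1. Cyp2c37 was at 210.2, 33.5 and 182 TPM in MKO_PD1, against 3.24, 37.2 and 25.6 TPM in Cre_PD1. Cyp2c67 was at 216, 75.6 and 146 TPM in MKO_PD1, against 17.9, 63.8 and 82.7 TPM in Cre_PD1 and Cyp2c23 at 228, 102 and 216 TPM in MKO_PD1, against 19.3, 70.1 and 110.3 TPM in Cre_PD1. Their log2 differences were 2.16, 2.76, 1.52 and 1.66, and each had an unadjusted limma p under 0.05. With hepatocyte scaling Cyp2c67 and Cyp2c23 turned negative, and with the covariate all 4 did. Cyp2c68 shares 28.5% of its 75-base windows with other genes and Cyp2c37 shares 13.8%. Cyp2c67 shares more than either, so the values of these genes are uncertain.

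A pair of closely similar genes, Cyp2c40 and Cyp2c69, divided the tumours in another way. Cyp2c40 was at 40.5, 0.442 and 25.4 TPM in MKO_PD1, against 0.676, 1.19 and 5.32 TPM in Cre_PD1. Cyp2c69 was at 24.02, 0.117 and 31.7 TPM in MKO_PD1, against 0.0576, 0.926 and 2.61 TPM in Cre_PD1. In MKO_PD1 replicate 2 the counts were 9 and 2 reads, against 1082 and 538 in MKO_PD1 replicate 1, so this tumour was below every Cre_PD1 tumour for Cyp2c40 and above Cre_PD1 replicate 1 alone for Cyp2c69. The log2 differences were 2.03 and 2.32, with limma adjusted p-values of 0.253 and 0.214, and with the covariate both were negative. The transcripts are alike, 27.7% of the 75-base windows of Cyp2c40 occurring in Cyp2c69 and 36.2% of those of Cyp2c69 in Cyp2c40, so the submitters' counting could divide reads between them and each value is uncertain. The sequences before their start sites, both on the minus strand of GRCm38.p6 (chr19:39812815-39813064 and chr19:39886800-39887019, RefSeq), are shown because they are nearly the same. Capitals mark an HNF4 core (AAAGTCC).
Cyp2c40: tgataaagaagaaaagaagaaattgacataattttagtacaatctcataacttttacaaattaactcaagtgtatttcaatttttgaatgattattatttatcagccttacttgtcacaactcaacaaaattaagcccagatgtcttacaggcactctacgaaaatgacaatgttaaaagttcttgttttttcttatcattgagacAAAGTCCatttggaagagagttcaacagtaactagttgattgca
Cyp2c69: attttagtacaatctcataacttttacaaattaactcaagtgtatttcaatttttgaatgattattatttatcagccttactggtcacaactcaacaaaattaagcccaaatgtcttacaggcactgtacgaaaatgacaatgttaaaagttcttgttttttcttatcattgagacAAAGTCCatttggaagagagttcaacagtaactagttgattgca

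The Cyp2c69 sequence matched the last 220 bases of the Cyp2c40 sequence at 217 positions (98.6%), with 3 differences, once a shift of 30 bases between the annotated starts was allowed for. The HNF4 core was in the 250 bases upstream of 10 of the 44 tested P450 genes with a RefSeq window (22.7%), against 4.15% of all 27025 genes. Among the separate and higher P450 genes with a window it was in 3 of 21 (14.3%). The 10 were Cyp2c40, Cyp2c67, Cyp2c68, Cyp2c69, Cyp2c70, Cyp2a4, Cyp2a5, Cyp3a11, Cyp4f18 and Cyp8b1. Related genes can share such sequence, so hits within a subfamily need not be independent, here and for the words below. Both strands were searched for every motif, a match is only a run of letters, and windows without one say nothing of a factor's binding.

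The window before Cyp2c38 (chr19:39463076-39463325, minus strand) and the outer parts of those before Cyp3a11 (chr5:145879965-145880104, minus strand) and Cyp2e1 (chr7:140763569-140763738, plus strand) are given because Cyp2e1 was the most abundant P450 gene and the other 2 had some of the smallest unadjusted p-values. Only bases outside the gene body of the GENCODE annotation are printed. Capitals mark TATAAA and the FOXA word TGTTTAC, and in Cyp3a11 also AGGTCA, a word bound by nuclear receptors.
Cyp2c38: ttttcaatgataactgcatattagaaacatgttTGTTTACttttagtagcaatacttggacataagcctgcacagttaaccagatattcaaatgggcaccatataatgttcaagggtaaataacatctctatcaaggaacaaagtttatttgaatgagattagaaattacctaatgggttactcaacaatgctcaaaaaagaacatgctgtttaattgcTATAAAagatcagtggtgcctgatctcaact
Cyp3a11: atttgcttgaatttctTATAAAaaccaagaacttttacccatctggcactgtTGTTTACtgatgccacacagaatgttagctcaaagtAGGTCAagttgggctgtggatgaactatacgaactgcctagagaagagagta
Cyp2e1: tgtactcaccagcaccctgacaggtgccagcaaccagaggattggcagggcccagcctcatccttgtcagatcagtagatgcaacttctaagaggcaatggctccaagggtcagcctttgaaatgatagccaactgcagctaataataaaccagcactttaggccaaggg

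TATAAA was in 19 of the 44 tested P450 windows (43.2%), against 14.3% of all genes, and in the full windows of Cyp2c38 and Cyp2e1 it began 31 bases before the RefSeq start. In Cyp2e1 those bases lie inside the GENCODE gene body and are not printed. The printed TATAAA of Cyp3a11 began 234 bases before its RefSeq start. The HNF4 core of Cyp3a11 began 108 bases before that start, in the part not printed. TGTTTAC was in 3 windows (6.82%), those of Cyp2c38, Cyp2j5 and Cyp3a11, against 3.54% of all genes. AGGTCA was in 7 (15.9%), close to the 15.8% of all genes. Of the other words searched, TTGCNNAA (C/EBP) was in 20.5% of the P450 windows and 10.8% of all, and GCGTG, the core bound by the aryl hydrocarbon receptor, in 18.2% and 30.9%.

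Cyp2e1 (ENSMUSG00000025479.9, chromosome 7, 140763739 to 140774987, plus strand), which oxidises ethanol and acetaminophen and marks hepatocytes around the central vein, was the highest P450 gene in all 6 libraries. It was at 4987, 2109.9 and 4362 TPM in MKO_PD1, against 157, 1413 and 1235 TPM in Cre_PD1. The groups were separate, at 3819.8 ± 1513 TPM in MKO_PD1 and 935 ± 679 TPM in Cre_PD1 (log2 difference 2.46, SE 0.83). It made up 35.1, 38.1 and 37.1% of P450 TPM in MKO_PD1, against 12.3, 32.7 and 28.8% in Cre_PD1, so Cre_PD1 replicate 1 stood apart from the other 5 tumours. Cyp1a2, another central-vein gene, which metabolises caffeine and is induced through the aryl hydrocarbon receptor, was at 252, 129 and 143 TPM in MKO_PD1, against 20.9, 140.0 and 105 TPM in Cre_PD1. Its groups overlapped (log2 difference 1.28, SE 0.66, limma adjusted p = 0.215). Cyp1a1, another target of that receptor, was under the filter at 0.0821, 0.251 and 0.237 TPM in MKO_PD1, against 0.388, 0.777 and 0.368 TPM in Cre_PD1.

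Cyp2a5, which metabolises coumarin and nicotine, was at 247, 189.9 and 189 TPM in MKO_PD1, against 31.6, 168 and 62.6 TPM in Cre_PD1. The MKO_PD1 tumours were close to each other, and all lay above the Cre_PD1 tumours (log2 difference 1.56, SE 0.54). Cyp2a12 was at 163, 64.6 and 145 TPM in MKO_PD1, against 24.01, 68.8 and 80.8 TPM in Cre_PD1, with replicate 2 of each group near the same level. With hepatocyte scaling Cyp2a5, Cyp2a12, Cyp1a2 and Cyp2f2 turned negative, and with the covariate Cyp2a12, Cyp1a2, Cyp2f2 and Cyp2e1 did. Cyp2f2, a gene of periportal hepatocytes and of airway club cells known for activating naphthalene, was at 457, 88.7 and 381 TPM in MKO_PD1, against 23.1, 126 and 203 TPM in Cre_PD1. MKO_PD1 replicate 2 was below 2 of the Cre_PD1 tumours (log2 difference 1.55, SE 0.87, limma adjusted p = 0.242). The annotation has an antisense gene over Cyp2f2, and whether the counting used strand is not given in the sources used here. Cyp2e1 was 10.9, 23.8 and 11.5 times Cyp2f2 in MKO_PD1, against 6.81, 11.2 and 6.08 times in Cre_PD1, and the groups overlapped. The lists of zonal genes without P450 genes had near-equal medians. For central-vein genes 8 of 13 and for periportal genes 7 of 10 were higher at an unadjusted limma p under 0.05, where 8.47% of all tested genes were. Their median log2 differences were 1.37 and 1.35. By separation the lists were less alike. Of the central-vein genes 11 of 13 were separate and higher and 0 lower, and of the periportal genes 5 of 10 were higher and 1 lower. Of all tested genes, 10.1% were separate and higher and 28.9% lower.

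In the Cyp2d cluster (chromosome 15, 82370527 to 82794294), 5 of the 8 genes were tested, 3 were higher at an unadjusted limma p under 0.05 and 4 were separate. Cyp2d10 was at 909, 280.4 and 608 TPM in MKO_PD1, against 94.6, 242 and 272 TPM in Cre_PD1 and Cyp2d26 at 659, 219.6 and 492 TPM in MKO_PD1, against 90.7, 199 and 207 TPM in Cre_PD1. Their log2 differences were 1.54 and 1.41, and both turned negative with hepatocyte scaling. Cyp2d9, a testosterone hydroxylase, was at 479, 347 and 389 TPM in MKO_PD1, against 117, 298 and 312 TPM in Cre_PD1, the flattest of the abundant Cyp2d genes (log2 difference 0.85, SE 0.41). Annotated pseudogenes overlap Cyp2d9, so its reads are uncertain. Cyp2d22 was at 112, 51.4 and 99.5 TPM in MKO_PD1, against 16.0, 32.4 and 33.1 TPM in Cre_PD1 and had the smallest unadjusted p of the cluster (0.00346 in limma, log2 difference 1.65, SE 0.40, adjusted p = 0.168). Cyp2d40 was at 108, 24.3 and 49.3 TPM in MKO_PD1, against 8.28, 19.98 and 36.03 TPM in Cre_PD1, and its groups overlapped. Cyp2d9, Cyp2d22 and Cyp2d40 also turned negative with hepatocyte scaling, and with the covariate all but Cyp2d22 of these 5 did.

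Among the genes of fatty acid oxidation, the tested Cyp2j and Cyp4a genes had fitted differences above 0, and those of Cyp4f had both signs. Cyp2j5, an arachidonic acid epoxygenase of liver and kidney, was at 304, 97.0 and 202 TPM in MKO_PD1, against 29.5, 87.8 and 103 TPM in Cre_PD1. Cyp2j6 was at 35.1, 19.0 and 27.7 TPM in MKO_PD1, against 5.67, 16.1 and 14.7 TPM in Cre_PD1 and Cyp2j9 at 7.20, 3.42 and 6.74 TPM in MKO_PD1, against 1.03, 1.75 and 1.78 TPM in Cre_PD1. All 3 had an unadjusted limma p under 0.05, and Cyp2j6 and Cyp2j9 were separate, with log2 differences of 1.18 and 1.39. With hepatocyte scaling, and with the covariate, Cyp2j5 and Cyp2j6 turned negative.

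None of the 4 tested Cyp4a genes, fatty acid hydroxylases induced through PPAR alpha, was separate or had an unadjusted limma p under 0.05. Cyp4a10 was at 10.2, 12.6 and 14.2 TPM in MKO_PD1, against 2.89, 5.09 and 11.8 TPM in Cre_PD1 and Cyp4a32, which shares 28.0% of its windows with other genes, at 14.4, 9.45 and 16.4 TPM in MKO_PD1, against 0.960, 6.45 and 12.7 TPM in Cre_PD1. Summed over its 5 genes, Cyp4a was at 31.8, 35.5 and 37.9 TPM in MKO_PD1, against 10.2, 14.3 and 30.6 TPM in Cre_PD1, which did not overlap. With Cyp4a12a and Cyp4a12b, which the symbol rule leaves out and which were added after their values were seen, the sums were 75.8, 58.6 and 61.7 TPM in MKO_PD1, against 18.2, 34.1 and 66.8 TPM in Cre_PD1, and the groups overlapped. Cyp4b1, a hydroxylase known best from lung, was at 26.6, 20.4 and 28.8 TPM in MKO_PD1, against 9.46, 16.6 and 16.8 TPM in Cre_PD1 (log2 difference 0.81, SE 0.31). Cyp4v3, the mouse counterpart of a human gene of a retinal disease, was at 101, 86.6 and 90.5 TPM in MKO_PD1, against 51.3, 78.2 and 72.7 TPM in Cre_PD1, separate by a small margin (log2 difference 0.47, SE 0.25). With hepatocyte scaling Cyp4a10, Cyp4a32, Cyp4b1 and Cyp4v3 turned negative, and with the covariate Cyp4a32 did.

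Of 6 tested Cyp4f genes, 2 were higher at an unadjusted limma p under 0.05. Cyp4f14, a hepatic hydroxylase, was at 258, 67.8 and 177 TPM in MKO_PD1, against 11.6, 55.6 and 71.2 TPM in Cre_PD1 and Cyp4f15 at 115, 55.0 and 82.5 TPM in MKO_PD1, against 8.45, 36.6 and 40.1 TPM in Cre_PD1. Their log2 differences were 1.98 and 1.74. Cyp4f15 was separate, while Cyp4f14 overlapped, with MKO_PD1 replicate 2 below Cre_PD1 replicate 3. Cyp4f13 was at 38.2, 24.7 and 33.3 TPM in MKO_PD1, against 20.5, 22.0 and 28.8 TPM in Cre_PD1, Cyp4f16 at 9.96, 20.6 and 13.2 TPM in MKO_PD1, against 14.2, 13.9 and 15.5 TPM in Cre_PD1, and Cyp4f17 at 7.80, 5.69 and 8.72 TPM in MKO_PD1, against 4.27, 5.10 and 7.78 TPM in Cre_PD1. These 3 overlapped between the groups. With hepatocyte scaling Cyp4f13, Cyp4f15 and Cyp4f17 turned negative, and with the covariate these and Cyp4f14 did. Cyp4f18, which inactivates leukotriene B4 in mouse neutrophils, was at 11.2, 63.6 and 26.6 TPM in MKO_PD1, against 44.6, 31.2 and 33.5 TPM in Cre_PD1. The MKO_PD1 tumours reached below and above the whole Cre_PD1 range. Beside it, the summed level of 13 neutrophil genes was 313, 1299 and 496 TPM in MKO_PD1, against 161, 271 and 147 TPM in Cre_PD1, highest in MKO_PD1 replicate 2 as for Cyp4f18. Within Cre_PD1 the orders differed, with Cyp4f18 highest in replicate 1 and the neutrophil sum in replicate 2. Of the 12 tested neutrophil genes, 8 were higher at an unadjusted limma p under 0.05, where 8.47% of all tested genes were. None of the list was at 0 in all libraries, and the part of these genes in the Cyp4f18 values was not tested. The fitted log2 differences of Cyp4f18 and Cyp4f16 were -0.41 and -0.05 and turned positive with median-of-ratios scaling and with the covariate. The gene Zfp961 overlaps Cyp4f18 on the other strand.

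The genes of retinoic acid breakdown differed from each other. Cyp26a1 (ENSMUSG00000024987.6, chromosome 19, 37697798 to 37701536, plus strand), which degrades retinoic acid in hepatocytes and is itself induced by it, was at 16.3, 6.21 and 8.87 TPM in MKO_PD1, against 1.54, 4.20 and 1.78 TPM in Cre_PD1. It was separate (log2 difference 1.69, SE 0.44). Cyp26b1, which degrades the same ligand mainly outside hepatocytes, was at 0.969, 15.7 and 6.63 TPM in MKO_PD1, against 10.6, 10.5 and 9.81 TPM in Cre_PD1, with the 3 Cre_PD1 tumours nearly equal and the MKO_PD1 tumours on both sides of them (log2 difference -0.84, SE 0.69, positive with the covariate). The summed level of 12 stellate cell and fibroblast genes was 272, 2365 and 696 TPM in MKO_PD1, against 793, 1283 and 869 TPM in Cre_PD1, in the same order among the MKO_PD1 tumours as Cyp26b1. No gene of that list was at 0 in all libraries, none of the 12 had an unadjusted limma p under 0.05, and its part in the Cyp26b1 values was not tested. The sequence before Cyp26a1 (chr19:37697558-37697797, plus strand of GRCm38.p6, RefSeq) is shown for a match to a single spelling of the repeat bound by retinoic acid receptors. Capitals mark it, read on the other strand as the word AGTTCA, 5 bases and AGTTCA again.
Cyp26a1: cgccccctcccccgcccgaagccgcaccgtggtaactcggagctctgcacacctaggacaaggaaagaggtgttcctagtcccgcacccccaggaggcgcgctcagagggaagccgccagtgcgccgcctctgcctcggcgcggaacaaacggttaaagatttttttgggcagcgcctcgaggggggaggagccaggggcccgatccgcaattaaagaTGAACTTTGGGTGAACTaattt

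This exact spelling was in 7 of 27025 windows (0.0259%), and Cyp26a1 was the only tested P450 gene with it. Other spellings of the repeat were not searched, so the share is not that of all such sites. For vitamin D, Cyp2r1, the main liver 25-hydroxylase, was at 14.1, 4.87 and 10.6 TPM in MKO_PD1, against 1.63, 4.45 and 4.69 TPM in Cre_PD1 (log2 difference 1.22, SE 0.46, negative with hepatocyte scaling and with the covariate). Cyp27b1 and Cyp24a1, which activate and inactivate the hormone mainly in kidney, stayed under the filter. Cyp24a1 had 1 read in all, in Cre_PD1 replicate 3.

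The steroid hormone genes were low. Cyp21a1, the adrenal 21-hydroxylase, was at 0.606, 1.78 and 0.663 TPM in MKO_PD1, against 0.689, 1.98 and 1.23 TPM in Cre_PD1, the only tested gene of 6 in that role. Its fitted log2 difference of -0.20 turned positive with median-of-ratios scaling. Cyp21a1 shares 11.5% of its 75-base windows with the pseudogene Cyp21a2-ps, so its low value is uncertain. That pseudogene was at 25.3, 15.0 and 24.7 TPM in MKO_PD1, against 2.49, 7.65 and 15.3 TPM in Cre_PD1. Cyp17a1 was highest among the untested genes, at 6.94, 0.903 and 6.73 TPM in MKO_PD1, against 0.320, 0.662 and 0.330 TPM in Cre_PD1, and was separate. Cyp11a1, which starts steroid synthesis, had 5, 20 and 9 reads in MKO_PD1, against 1, 8 and 4 in Cre_PD1. In all, 26 genes above 0 were not tested, and none exceeded 6.94 TPM in a library. Cyp1b1, a P450 of stromal and endothelial cells, was at 0.783, 6.36 and 2.09 TPM in MKO_PD1, against 2.75, 2.85 and 2.99 TPM in Cre_PD1, and its fitted log2 difference of -0.17 also turned positive with median-of-ratios scaling and with the covariate.

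Cyp2s1 (ENSMUSG00000040703.11, chromosome 7, 25802475 to 25816913, minus strand) was the only tested P450 gene that was separate and lower in MKO_PD1. It is an epithelial P450 expressed mainly outside the liver. It was at 5.22, 32.8 and 18.7 TPM in MKO_PD1, against 118, 63.1 and 72.8 TPM in Cre_PD1. The group values were 18.9 ± 13.8 TPM in MKO_PD1 and 84.7 ± 29.5 TPM in Cre_PD1, with a log2 difference of -2.36, SE 0.59 (unadjusted p = 0.00384, adjusted p = 0.168, limma). Among the 94 P450 genes it ranked 2nd in Cre_PD1 replicate 1 and 49th in MKO_PD1 replicate 1. The summed level of 9 keratin and progenitor genes of tumour epithelium was 1459, 4824 and 3665 TPM in MKO_PD1, against 14189.7, 8901 and 7803 TPM in Cre_PD1. Of its 8 tested genes, 6 were separate and lower in MKO_PD1, beside 28.9% of all tested genes, Krt7 and Epcam overlapped, and none passed the adjusted limma threshold. None was at 0 in all libraries, and its part in the Cyp2s1 values was not tested. Opposite-strand genes overlap Cyp2s1 in the annotation. Cyp20a1, a P450 of unknown substrate, was at 19.7, 44.3 and 32.8 TPM in MKO_PD1, against 53.2, 43.9 and 54.5 TPM in Cre_PD1, with MKO_PD1 replicate 2 just above the lowest Cre_PD1 tumour (log2 difference -0.70, SE 0.33).

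To set P450 genes against other hepatocyte genes of the same tumour, the mean log2(TPM + 1) of the 24 listed genes was subtracted in each library. That mean was 11.39, 9.70 and 10.99 in MKO_PD1, against 7.93, 9.38 and 9.34 in Cre_PD1, a difference of 1.81. On this scale 4 P450 genes were separate and higher in MKO_PD1, 18 were separate and lower and 35 overlapped, where the background was 0.0666% of all tested genes for separate and higher, and 65.3% for separate and lower. The 4 were Cyp7a1, Cyp3a11, Cyp2c38 and Cyp3a25. Low genes tend to fall lower on this scale whatever their change. Cyp2w1, at 0 TPM in all 6 libraries and not tested, had a group difference of -1.81 and would count as separate and lower. The tested low genes Cyp46a1, Cyp2c55 and Cyp21a1 are among the 18, so the 18 and the 65.3% partly reflect this floor. Cyp7a1 was at -4.07, -3.69 and -3.10 in MKO_PD1, against -6.32, -5.32 and -4.74 in Cre_PD1. Cyp3a11 was at -3.45, -2.53 and -3.69 in MKO_PD1, against -4.06, -3.86 and -4.02 in Cre_PD1, Cyp2c38 at -6.14, -6.57 and -5.72 in MKO_PD1, against -6.71, -7.20 and -7.12 in Cre_PD1, and Cyp3a25 at -3.15, -2.82 and -2.72 in MKO_PD1, against -4.16, -3.19 and -3.36 in Cre_PD1. Cyp3a11 was highest in MKO_PD1 replicate 2 on this scale, though not in TPM.

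Other genes overlapped between the groups on this scale or lay lower in MKO_PD1. Cyp2e1 was at 0.90, 1.34 and 1.10 in MKO_PD1, against -0.63, 1.08 and 0.93 in Cre_PD1, where 5 of the tumours lay close together. Cyp2d9 was at -2.48, -1.26 and -2.38 in MKO_PD1, against -1.05, -1.16 and -1.05 in Cre_PD1, lower in every MKO_PD1 tumour. Cyp2s1 was at -8.75, -4.62 and -6.69 in MKO_PD1, against -1.03, -3.38 and -3.14 in Cre_PD1.

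**Figure D4:**
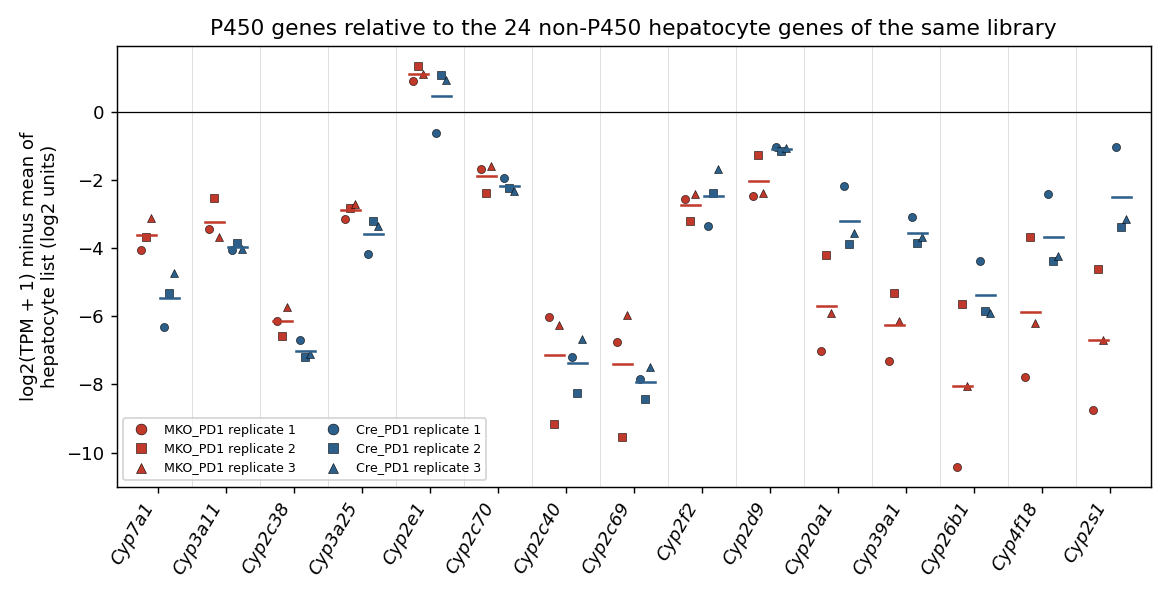
Log2(TPM + 1) of P450 genes minus the mean of 24 hepatocyte genes in the same tumour, MKO_PD1 left of Cre_PD1. Cyp7a1, Cyp3a11, Cyp2c38 and Cyp3a25 lie higher in all MKO_PD1 tumours, Cyp2e1 overlaps, and Cyp2d9 and Cyp2s1 lie lower.

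In a limma fit with libraries scaled to equal hepatocyte list means, 21 of the 57 P450 genes had a difference above 0, where 2.98% of all tested genes did. At a limma adjusted p under 0.05, no P450 gene was higher (background 0.0303%) and 4 were lower (background 45.5%). The 4 were Cyp2s1, Cyp39a1, Cyp20a1 and Cyp26b1. Cyp7a1 was the P450 gene nearest to being called higher, with a log2 difference of 1.98 (limma adjusted p = 0.0643). It was among 9 genes (0.0545%) that were higher at an unadjusted limma p under 0.05.

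The partners and regulators of P450 enzymes were read from lists of 15 and 20 genes. Of the 15 electron donors and haem synthesis genes, 4 were higher and 1 lower at an unadjusted limma p under 0.05. Of all tested genes, 8.47% were higher and 19.5% lower at that p. None of the 15 passed the adjusted threshold (median log2 difference 0.45). Alas1, the first and rate-limiting enzyme of liver haem synthesis, was at 166, 135 and 178 TPM in MKO_PD1, against 32.1, 80.7 and 80.9 TPM in Cre_PD1. Cyb5a, cytochrome b5, which passes electrons to several P450 enzymes, was at 388, 192 and 281 TPM in MKO_PD1, against 72.9, 151 and 125 TPM in Cre_PD1. Both were separate, with log2 differences of 1.398 and 1.298. Alad, another haem synthesis gene, was at 135, 79.6 and 86.9 TPM in MKO_PD1, against 34.1, 66.6 and 64.5 TPM in Cre_PD1. Ppox, a late mitochondrial step of the same pathway, went the other way at 19.4, 36.4 and 27.5 TPM in MKO_PD1, against 55.1, 42.9 and 47.8 TPM in Cre_PD1, with a log2 difference of -0.82. Por, which encodes P450 oxidoreductase, was at 194, 177 and 230 TPM in MKO_PD1, against 221, 209 and 186 TPM in Cre_PD1. It overlapped (log2 difference -0.04), as did Cyb5b and Cyb5r3. Por, Cyb5b and Cyb5r3 were chosen after their values were seen.

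Of the 20 receptors and transcription factors, 8 were higher and 1 lower at an unadjusted limma p under 0.05 (median log2 difference 0.57), and none passed the adjusted threshold. Of all tested genes, 8.47% were higher and 19.5% lower at that p. By separation, 6 were higher and 2 lower, the 2 being Foxa2 and Arnt, where 10.1% and 28.9% of all tested genes were. Nr1i3, which encodes CAR, was at 10.8, 7.48 and 13.0 TPM in MKO_PD1, against 1.89, 4.06 and 3.54 TPM in Cre_PD1. Cyp2b10, the classical target gene of CAR, stayed under the filter at 0.361, 0.332 and 1.03 TPM in MKO_PD1, against 0.0931, 0.355 and 0.0540 TPM in Cre_PD1. Nr1i2, which encodes PXR, was at 41.9, 23.8 and 35.3 TPM in MKO_PD1, against 6.55, 14.6 and 13.9 TPM in Cre_PD1. Ppara, the receptor upstream of the Cyp4a genes, was at 27.4, 19.4 and 32.0 TPM in MKO_PD1, against 3.18, 8.55 and 13.0 TPM in Cre_PD1. All 3 were separate, with log2 differences of 1.47, 1.48 and 1.70. Foxa3, a hepatocyte transcription factor, was at 126, 29.4 and 75.4 TPM in MKO_PD1, against 10.3, 19.2 and 20.7 TPM in Cre_PD1 and was separate as well. Its relative Foxa2 was at 46.5, 54.0 and 45.5 TPM in MKO_PD1, against 100.01, 72.7 and 68.6 TPM in Cre_PD1, with a log2 difference of -0.70. Hnf4a, at 276, 117 and 205 TPM in MKO_PD1, against 114, 109 and 141 TPM in Cre_PD1, and Cebpa, at 512, 176 and 318 TPM in MKO_PD1, against 95.2, 156 and 192 TPM in Cre_PD1, overlapped. Foxa2, Arnt, Hnf4a and Cebpa were chosen after their values were seen.

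Other cell types of the tumour were read from marker lists, and none of their genes passed the adjusted limma threshold. The summed level of 13 macrophage genes was 3477, 7293 and 3828 TPM in MKO_PD1, against 3008, 3861 and 3843 TPM in Cre_PD1, with 3 of 13 higher at an unadjusted limma p under 0.05. That of 9 endothelial genes was 265, 216 and 262 TPM in MKO_PD1, against 118, 158 and 153 TPM in Cre_PD1, with 5 of 9 higher. That of 11 mast cell and basophil genes was 26.4, 112 and 28.8 TPM in MKO_PD1, against 14.6, 36.5 and 42.7 TPM in Cre_PD1, with 2 of 9 tested genes higher. Of all tested genes, 8.47% were higher at that p. None of these markers was at 0 in all 6 libraries, MKO_PD1 replicate 2 was highest for the macrophage and mast cell sums, and their part in the P450 values was not tested.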

How the data were processed

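Polyadenylated RNA of 6 liver tumours was sequenced, 1 library each, from 3 mice per genotype per the series' design text. Per the submitters' processing notes, the tools were STAR 2.7.10a and featureCounts 2.0.3 of the Subread package, with build mm10. How reads with several matches and strand were counted is not given in the sources used here. The deposited values are named as TPM, which the design assumed, but the authors' columns are reads divided by gene length on a common scale, a signal whose column sums ran from 70362.6 to 105281. Multiplied by exon length (GENCODE mouse M21, GRCm38) and divided by a constant shared by all columns, they gave whole reads, within 0.001 reads, for 98.5% of genes that had an exon length and any signal (29352 of 29798), all 94 P450 genes included. Columns were rescaled to 1000000. MKO_PD1 was set against Cre_PD1 on log2(TPM + 1) by limma 3.58.1 (R 4.3.3), using its moderated statistic and a variance trend but neither covariate nor block. Genes entered the fit if 3 or more libraries reached 1 TPM. Two-sided p-values were adjusted by Benjamini-Hochberg over all 16506 tested genes, with a threshold of 0.05. P-values measure the spread between these libraries, and reads carried no molecular identifiers. Shared sequence was read as the share of 75-base transcript windows found in the transcripts of any other annotated gene. Over 10% of windows were shared for 16 of the 50 named genes, whose values are therefore less certain. They were Cyp2c40, Cyp2c69, Cyp2c67, Cyp2c68, Cyp4a32, Cyp2a5, Cyp2d10, Cyp4a10, Cyp2c54, Cyp2c37, Cyp3a59, Cyp2d9, Cyp3a25, Cyp21a1, Cyp2c50 and Cyp4f16.

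The P450 genes, gene lists and tests were chosen with earlier results of these data known. A P450 gene was named with its value in every library if its mean was at least 5 TPM, or if it was among the 12 higher or 12 lower tested genes of smallest unadjusted p, which gave 50 genes. Of each of the 2 pathway lists, the 4 genes of smallest p were named, along with those marked as chosen after their values were seen. Promoter windows, the 250 bases upstream of each RefSeq start, were found for 73 P450 genes. Alternatives changed the pseudocount, filter, scaling, covariate, trend, block, test and libraries. The procedure was checked on simulated data.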

Additional observations from a re-analysis of the deposited data

How the results depend on the processing

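The direction of the P450 genes held under both other pseudocounts, both other filters and the fit without a trend, for every named gene that could be fitted there. It depended on the hepatocyte list and on single libraries, and the cause was not tested. At the adjusted threshold 2 of all genes passed in limma. That count was 0 without a filter, with a filter of 5 TPM, with the hepatocyte covariate, with the replicate block and with voom, 1 with median-of-ratios scaling and without MKO_PD1 replicates 1 and 3, and 7513 with hepatocyte scaling. Leaving out single libraries gave 0 to 7314 genes, the most without MKO_PD1 replicate 2. P450 genes passing numbered 0, against 4 with hepatocyte scaling and 0 to 34 with single libraries left out. The 30 P450 genes higher at an unadjusted limma p under 0.05 became 1 with hepatocyte scaling, 3 with the covariate, 6 without MKO_PD1 replicates 1 and 3 (8.38% of all genes), and 15 to 37 with single libraries left out. The fit without MKO_PD1 replicates 1 and 3 assumes that its lone MKO_PD1 library varies like the Cre_PD1 libraries. The 2 lower became 1 with median-of-ratios scaling and with voom, 5 with hepatocyte scaling, and 1 to 5 with single libraries left out, being 5 without MKO_PD1 replicate 2 and 1 without Cre_PD1 replicate 2 or 3. The P450 median of 1.42 became -0.27 with hepatocyte scaling, -0.095 with the covariate, 2.05 with voom and 0.72 without MKO_PD1 replicates 1 and 3.

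With hepatocyte scaling 22 named genes turned to log2 differences below 0, namely Cyp4f13 -1.34, Cyp4v3 -1.32, Cyp4f17 -1.21, Cyp2d9 -0.96, Cyp4b1 -0.91, Cyp2a12 -0.63, Cyp4a10 -0.60, Cyp2j6 -0.52, Cyp1a2 -0.51, Cyp2d26 -0.40, Cyp2d40 -0.32, Cyp2j5 -0.32, Cyp7b1 -0.31, Cyp2r1 -0.29, Cyp2d10 -0.27, Cyp2c67 -0.26, Cyp2f2 -0.25, Cyp2a5 -0.23, Cyp4a32 -0.21, Cyp2d22 -0.13, Cyp2c23 -0.13 and Cyp4f15 -0.019. With the covariate 32 turned, namely Cyp2c40 -1.48, Cyp2f2 -1.46, Cyp2c69 -1.27, Cyp8b1 -1.04, Cyp1a2 -0.63, Cyp2d40 -0.59, Cyp2a12 -0.56, Cyp2c37 -0.53, Cyp4a32 -0.49, Cyp2c50 -0.47, Cyp4f14 -0.47, Cyp2c67 -0.45, Cyp2c68 -0.40, Cyp7b1 -0.40, Cyp2j5 -0.39, Cyp2c23 -0.28, Cyp2c54 -0.26, Cyp2d10 -0.23, Cyp2c29 -0.22, Cyp4f17 -0.20, Cyp2d9 -0.19, Cyp2r1 -0.18, Cyp2d26 -0.16, Cyp27a1 -0.16, Cyp4f13 -0.095, Cyp2e1 -0.077, Cyp2j6 -0.045, Cyp4f15 -0.032, Cyp4f16 0.46, Cyp26b1 0.72, Cyp1b1 0.90 and Cyp4f18 1.12. Cyp21a1, Cyp4f18, Cyp1b1 and Cyp4f16 turned to 0.023, 0.073, 0.13 and 0.42 with median-of-ratios scaling and to 0.11, 0.13, 0.18 and 0.45 with voom. With single libraries left out, Cyp4f16 ran from -0.31 to 0.18, Cyp4f18 from -1.01 to 0.19 and Cyp1b1 from -0.72 to 0.30, each above 0 without MKO_PD1 replicate 1 alone. Without MKO_PD1 replicates 1 and 3, Cyp21a1, Cyp4f16, Cyp26b1, Cyp4f18 and Cyp1b1 turned to 0.31, 0.48, 0.56, 0.80 and 0.93.

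Same-numbered libraries of the groups had correlations of deviations of -0.42, -0.26 and 0.049, so the numbers were not taken as pairs. With the replicate block, 0 P450 genes passed, 33 were higher and 2 lower at an unadjusted limma p under 0.05, and not every library correlated best with its own number.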
